A study of Homo sapiens with 9 samples.

Results

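The genes described are 6 neutrophil-attracting CXC chemokines, CXCL1, CXCL2, CXCL3, CXCL5, CXCL6 and CXCL8. They were taken by gene symbol from a list, 6 of the 18430 genes of the deposited table. No measured value entered this rule, but the members were chosen with earlier results of these data known. They were read in 9 RNA-seq libraries of A375, a human melanoma cell line of BRAFV600E genotype, grown in DMEM with 10% fetal bovine serum. In the vemurafenib group, cells received 10 µM of this inhibitor of mutant BRAF for 3 days. In the cisplatin group, cells received 2 µM of this DNA-crosslinking drug for 1 day. Both were then returned to normal culture, and RNA was collected on day 7, so that the drugs differed in dose, in exposure and in time since exposure. The control group was kept in normal culture and collected at the same time. Each group had 3 libraries of 1 cell line. The labels do not say that the replicates were separate cultures, so p-values measure only the spread between these libraries.

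These chemokines are small secreted proteins that carry a glutamate-leucine-arginine motif ahead of their conserved cysteines and draw neutrophils through the receptor CXCR2; CXCL8 and CXCL6 also signal through CXCR1. CXCL1 was first described as a growth factor made by melanoma cells, and CXCL8 is a well-studied product of melanomas. Their genes lie side by side, are transcribed under NF-kB together with AP-1 and C/EBP factors, and give short-lived messages whose 3′ untranslated regions carry AU-rich elements.

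All 6 genes lay within 359 kb of chromosome 4, between 73740569 and 74099195 of GRCh38.p14. CXCL8, CXCL6 and CXCL1 are on the plus strand, and CXCL5, CXCL3 and CXCL2 on the minus strand. The 110 bases upstream of each start site are shown because all 6 hold the same word in a like place. They are from RefSeq (GRCh38.p14), 5′ to 3′ on the strand of the gene, with the NF-kB word GGAATTTCC in capitals.

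CXCL8 (chr4:73740459-73740568, plus strand): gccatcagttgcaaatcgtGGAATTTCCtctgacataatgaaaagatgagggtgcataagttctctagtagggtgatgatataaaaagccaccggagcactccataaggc
CXCL6 (chr4:73836568-73836677, plus strand): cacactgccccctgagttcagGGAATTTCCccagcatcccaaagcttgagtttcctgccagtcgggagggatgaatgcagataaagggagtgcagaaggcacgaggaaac
CXCL1 (chr4:73869283-73869392, plus strand): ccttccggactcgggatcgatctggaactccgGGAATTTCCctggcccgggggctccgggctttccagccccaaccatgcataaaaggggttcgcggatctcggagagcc
CXCL5 (chr4:73998678-73998787, minus strand): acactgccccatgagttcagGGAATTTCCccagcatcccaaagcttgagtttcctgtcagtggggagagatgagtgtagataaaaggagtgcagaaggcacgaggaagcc
CXCL3 (chr4:74038690-74038799, minus strand): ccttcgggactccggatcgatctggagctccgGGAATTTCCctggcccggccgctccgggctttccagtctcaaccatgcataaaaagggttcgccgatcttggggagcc
CXCL2 (chr4:74099196-74099305, minus strand): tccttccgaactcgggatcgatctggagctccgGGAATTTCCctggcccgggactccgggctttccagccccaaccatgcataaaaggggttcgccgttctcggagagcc

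The word began 91 bases upstream of the start site in CXCL8, 89 in CXCL6, 90 in CXCL5, 78 in CXCL1 and in CXCL3, and 77 in CXCL2. Searched on both strands of 300-base windows, it was in 6 of 6 of these promoters and in 162 of 35116 promoter windows of the RefSeq table, or 0.461%. A looser NF-kB pattern, GGG and CC around any 5 bases, was in 6 of 6 and in 58.7% of all windows, and it overlapped the first word in every member but CXCL8. The AP-1 word TGANTCA and the TATA word TATAAA were each found in CXCL8 alone of the 6, and in 7.71% and 11.5% of all windows. The GC-box word GGGCGG was in CXCL6, CXCL1 and CXCL3 and in 45.0% of all windows. Aligned over 250 upstream bases, CXCL6 and CXCL5 were 85.3% identical, CXCL1 and CXCL3 81.4%, CXCL3 and CXCL2 73.4% and CXCL1 and CXCL2 70.1%. CXCL8 was 44.3% to 48.1% identical to each of the others. A match is a run of letters and no evidence of binding in these cells.

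Library totals lay between 14481020 and 16038475 estimated counts. Of the 8 melanocyte markers looked up, SOX10, the lineage factor of melanocytes, averaged 1093 CPM in vemurafenib, 836 CPM in cisplatin and 1060 CPM in control cells. The pigment cell genes TYR, MLANA and TYRP1 averaged under 1 CPM in every group. Other markers of the list differed widely: S100B averaged 268 CPM in vemurafenib, 136 CPM in cisplatin and 15.1 CPM in control cells, and DCT averaged 275 CPM in vemurafenib, 0.683 CPM in cisplatin and 0.0863 CPM in control cells. MITF averaged 82.0 CPM in vemurafenib, 37.2 CPM in cisplatin and 35.8 CPM in control cells. The summed level of the list was 1507 to 1873 CPM in vemurafenib, 990 to 1038 CPM in cisplatin and 1033 to 1185 CPM in control libraries. The first vemurafenib replicate stood apart: the principal component ranked 3, 5.8% of the variance, put it at 39.1 and the other vemurafenib replicates at -22.3 and -22.7. In that replicate the deviation from the group mean fell with effective transcript length across genes (Spearman -0.6), while the other vemurafenib replicates had 0.53 and 0.44. The group mean includes the replicate itself, so the opposite signs were in part forced and are not separate observations. The changes of the tested chemokines are also given without the first vemurafenib replicate. The naming rule picked 24 genes outside the chemokine set for a called vemurafenib change against control. Without the first vemurafenib replicate 24 of 24 kept their call and direction, with a median shift of 0.12 on the log2 scale. Between the drugs 22 of 23 did, and IL1R1 lost its call (edgeR adjusted p = 0.0616). Since the rule picks large called changes, a kept call is a weak check.

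Both drug-treated groups held much less chemokine message than control cells. Summed over the 6 genes, the authors' TPM values (a level per transcript length) came to between 501.8 and 748.3 in vemurafenib libraries and between 411.1 and 500.7 in cisplatin libraries, against 1954 to 2716 in control libraries. CXCL8, CXCL1, CXCL3 and CXCL2 passed the filter on low counts. CXCL5 and CXCL6 did not, since they were practically without reads in any group. In bulk RNA, fewer cells expressing a gene and less RNA per cell cannot be told apart.

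CXCL8, the chemokine named interleukin-8 that acts on both neutrophil receptors, was the most abundant of the 6 in control cells. Its levels were 145, 210 and 250 normalised CPM (counts scaled to library size by TMM) in vemurafenib libraries, 211, 183 and 159 CPM in cisplatin libraries, and 823, 1078 and 836 CPM in control libraries. Every treated library lay below every control library, while the treated groups overlapped each other. Its log2 change was -2.18 with vemurafenib (SE 0.20, adjusted p = 4.99e-06) and -2.31 with cisplatin (SE 0.20, adjusted p = 3.33e-06) against control (edgeR's quasi-likelihood F test, p adjusted by Benjamini-Hochberg over the 13989 genes that passed the filter). These are levels 4.52 and 4.94 times lower. Without the first vemurafenib replicate the vemurafenib change was -1.99.

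CXCL1, which acts through CXCR2, had 185, 154 and 179 CPM in vemurafenib libraries, 89.9, 83.9 and 83.1 CPM in cisplatin libraries, and 422, 593 and 457 CPM in control libraries. The groups did not overlap, with cisplatin lowest and vemurafenib between. Its log2 change against control was -1.51 with vemurafenib (SE 0.14, edgeR adjusted p = 4.64e-06) and -2.52 with cisplatin (SE 0.14, edgeR adjusted p = 9.62e-08). Without the first vemurafenib replicate the vemurafenib change was -1.56.

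CXCL3, a close relative of CXCL1 and CXCL2, had 8.97, 6.80 and 6.36 CPM in vemurafenib libraries, 30.5, 25.2 and 15.1 CPM in cisplatin libraries, and 92.3, 128 and 86.4 CPM in control libraries. Here the order of the treated groups was the other way round, with vemurafenib lowest in every library. The log2 change of CXCL3 against control was -3.79 with vemurafenib (SE 0.26, edgeR adjusted p = 7.71e-07), a level 13.8 times lower, and -2.11 with cisplatin (SE 0.24, edgeR adjusted p = 2.92e-05), 4.33 times lower. Without the first vemurafenib replicate the vemurafenib change was -3.95.

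CXCL2, also a CXCR2 ligand, was the least abundant of the 4 tested genes in control cells. It had 12.7, 12.7 and 10.9 CPM in vemurafenib libraries, 8.52, 10.0 and 3.93 CPM in cisplatin libraries, and 40.7, 80.4 and 52.2 CPM in control libraries. The treated libraries again lay below all controls, and the control libraries spread widely. Its log2 change against control was -2.26 with vemurafenib (SE 0.30, edgeR adjusted p = 9.15e-05) and -2.95 with cisplatin (SE 0.31, edgeR adjusted p = 1.78e-05), and -2.29 with vemurafenib without its first replicate.

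CXCL5 and CXCL6, ligands that epithelial cells make in inflamed tissue, were near absence throughout. CXCL5 had 1 count in the third vemurafenib library, 0 in every cisplatin library and 1 in the second control library. CXCL6 had 1 count in the second vemurafenib, the first cisplatin and the second control library, and 0 in the other 6. A count of 0 allows up to 3 counts, or 0.187 to 0.207 CPM depending on the library, so no difference in either gene was detectable at this depth. Their promoters hold the same NF-kB word as those of the expressed members.

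**Figure D1:**
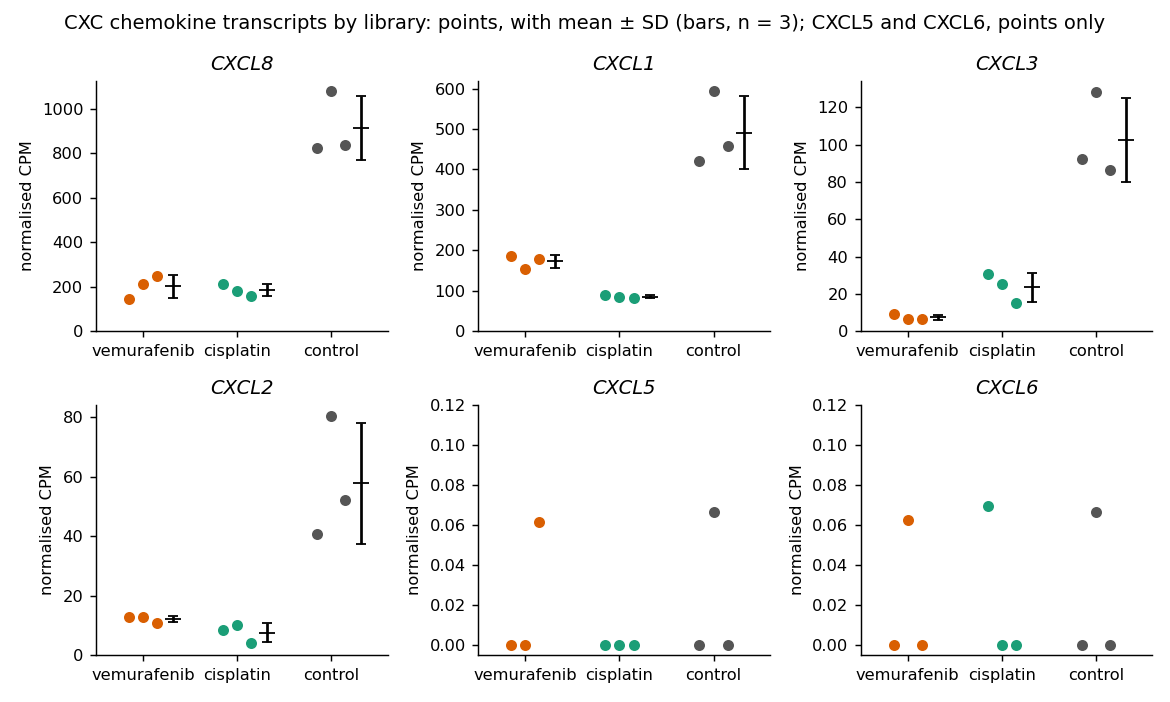
Normalised CPM (y axis, from 0 except for a small margin in CXCL5 and CXCL6) of each chemokine in each library (points), by group on the x axis; bars give mean ± SD (n = 3) for the 4 tested genes. CXCL8, CXCL1, CXCL3 and CXCL2 are lower in all treated libraries than in all control libraries, and CXCL5 and CXCL6 sit at 0 or 1 count.

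All 4 tested members were called lower with vemurafenib, where 22.9% of all genes tested were called lower, and all 4 with cisplatin, where 23.5% were. The groups did not overlap in 4 of 4 members in either comparison. Among all genes tested, 52.8% did not overlap between vemurafenib and control and 67.0% between cisplatin and control. The median log2 change of the 4 members was -2.22 with vemurafenib and -2.41 with cisplatin, against 0.01 and 0.00 over all genes tested. Ranked from the lowest change with vemurafenib, CXCL3 was at place 89 of 13989, CXCL2 at 399, CXCL8 at 437 and CXCL1 at 802. With cisplatin CXCL2 was at place 229, CXCL1 at 306, CXCL8 at 361 and CXCL3 at 436. The comparisons share the control libraries, so the direction common to them is not a repeat of the observation.

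Vemurafenib-treated and cisplatin-treated cells were also compared with each other in the same fit. Of the 4 members 2 were called, where 43.7% of all genes tested were called. CXCL1 was higher in vemurafenib than in cisplatin cells, by a log2 difference of 1.01 (SE 0.14, 95% interval 0.71 to 1.31, edgeR adjusted p = 9.67e-05). CXCL3 was lower in vemurafenib than in cisplatin cells, by a log2 difference of -1.68 (SE 0.26, 95% interval -2.24 to -1.12, edgeR adjusted p = 0.000269). The groups did not overlap in CXCL1, CXCL3 and CXCL2, as in 54.0% of all genes tested.

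CXCL2 was not called between the drugs. Its log2 difference of 0.69 had an interval of -0.00 to 1.38 (edgeR adjusted p = 0.0976), although all 3 vemurafenib libraries lay above all 3 cisplatin libraries. With replicate number added to the fit as a block, CXCL2 had 0.74 and was called (edgeR adjusted p = 0.0371). The difference of CXCL8 was 0.13 with an interval of -0.29 to 0.54 (edgeR adjusted p = 0.61), and its sign turned without the third vemurafenib replicate (-0.08). The data therefore bound the CXCL8 difference between the drugs to less than 1.46-fold upward and to no lower than 0.82-fold, and do not show equality. Without the first vemurafenib replicate the differences between the drugs were 0.96 in CXCL1, -1.84 in CXCL3, 0.66 in CXCL2 and 0.32 in CXCL8, with the same 2 genes called.

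**Figure D2:**
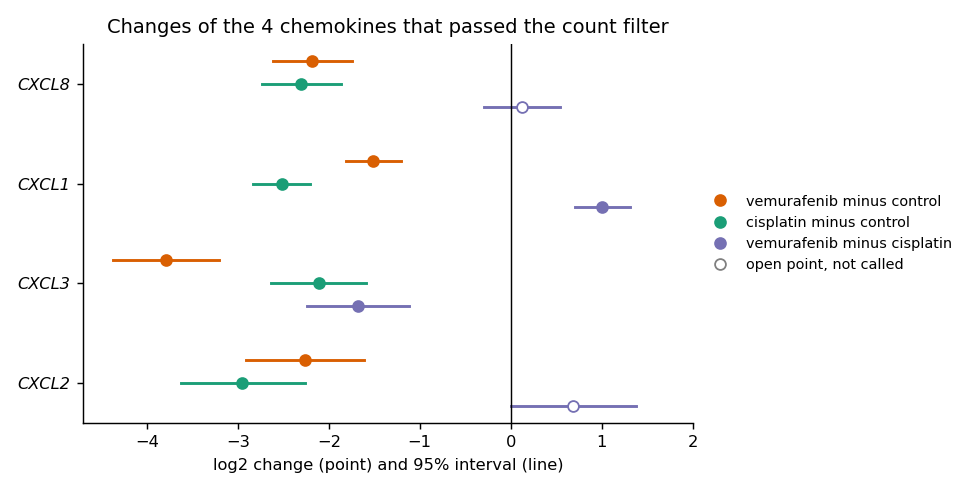
Log2 change (x axis) with its 95% interval for the 4 tested chemokines (y axis), for vemurafenib minus control, cisplatin minus control and vemurafenib minus cisplatin; filled points are called at an adjusted p of 0.05. All changes against control lie below 0, while CXCL1 (1.01) and CXCL3 (-1.68) fall on opposite sides of 0 between the drugs.

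The order of the levels within a library was read in TPM. CXCL1 exceeded CXCL8 in 3 of 3 vemurafenib libraries, with TPM ratios of 1.08 to 1.93, but in 0 of 3 cisplatin libraries (0.643 to 0.793) and 0 of 3 control libraries (0.774 to 0.829). The ratio of CXCL1 to CXCL8 was 1.93 in the first vemurafenib replicate, the one that stood apart, and close to even, at 1.10 and 1.08, in the other vemurafenib replicates. In counts, not scaled to length, CXCL1 was above CXCL8 in the first vemurafenib replicate (ratio 1.27) and below it in the others (0.732 and 0.715). CXCL2 exceeded CXCL3 in 3 of 3 vemurafenib libraries, with ratios of 1.35 to 1.78, against 0 of 3 cisplatin (0.25 to 0.381) and 0 of 3 control libraries (0.422 to 0.603).

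Mean TPM were 333 for CXCL1, 266 for CXCL8, 22.6 for CXCL2 and 14.3 for CXCL3 in vemurafenib cells. In cisplatin cells they were 234 for CXCL8, 165 for CXCL1, 45.5 for CXCL3 and 13.8 for CXCL2. In control cells they were 1093 for CXCL8, 888 for CXCL1, 186 for CXCL3 and 101 for CXCL2. By mean TPM, CXCL8 and CXCL1 stood at places 129 and 142 of 18430 genes in control cells. The same genes stood at 554 and 418 in vemurafenib cells and at 576 and 921 in cisplatin cells. The share of CXCL3 in the summed chemokine TPM was 1.77% to 3.0% in vemurafenib libraries, 7.35% to 11.5% in cisplatin libraries and 7.6% to 8.5% in control libraries. That of CXCL1 was 49.1% to 61.2% in vemurafenib, 33.4% to 40.2% in cisplatin and 38.4% to 39.8% in control libraries. The highest CXCL1 share, 61.2%, was that of the first vemurafenib replicate, and the others had 49.1% and 49.4%.

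**Figure D3:**
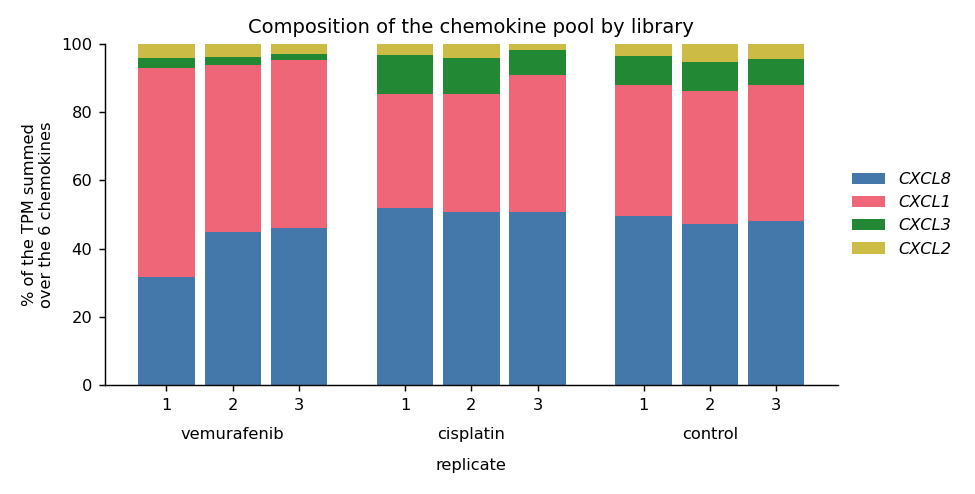
Share of each chemokine in the TPM summed over the 6 genes (y axis, %) in each library (x axis), grouped as vemurafenib, cisplatin and control; CXCL5 and CXCL6 are too small to draw. The CXCL3 band is 1.77% to 3.0% in vemurafenib libraries, 7.35% to 11.5% in cisplatin libraries and 7.6% to 8.5% in control libraries.

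The ratio of 2 members within a library does not depend on scaling between libraries. The log2 ratio of CXCL1 to CXCL3 counts was 4.56 ± 0.23 in vemurafenib, 1.92 ± 0.48 in cisplatin and 2.27 ± 0.12 in control libraries (SD, n = 3 each). Vemurafenib libraries exceeded control libraries by 2.29 and cisplatin libraries by 2.64 without overlap, while cisplatin and control libraries overlapped (-0.35). In an exact two-sided permutation test 3 libraries against 3 cannot give a p below 0.1, which adjusted over the 18 ratio comparisons made was 0.18, so none could pass. The log2 ratio of CXCL2 to CXCL8 counts was -4.03 ± 0.50 in vemurafenib, -4.72 ± 0.58 in cisplatin and -4.03 ± 0.30 in control libraries (SD, n = 3 each), with overlap between all groups. In vemurafenib libraries it ran from -4.52 to -3.52. Reads can be split wrongly among close relatives: of the 50-base windows of the CXCL2 transcript 5.13% were also in CXCL1 and 4.62% in CXCL3. Between CXCL1 and CXCL3 the shared part was 0.573% of CXCL1 windows, and CXCL5, CXCL6 and CXCL8 shared none. How the authors' counting treated shared reads is not given in the sources used here.

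Profiles over the 9 libraries were also compared by the root mean square difference of centred log2 CPM, which is a description without a test. CXCL1 and CXCL8 differed by 0.453, CXCL1 and CXCL2 by 0.459, and CXCL2 and CXCL8 by 0.496. CXCL3 was farther from each, at 0.851 from CXCL8, 1.02 from CXCL2 and 1.19 from CXCL1. Many genes outside the set were nearer: to CXCL1, 135 were nearer than CXCL8 and 148 nearer than CXCL2. To CXCL8, 84 were nearer than CXCL1 and 121 nearer than CXCL2. To CXCL2, 12 were nearer than CXCL1 and 17 nearer than CXCL8, and to CXCL3, 211 were nearer than CXCL8. Among 13223 genes with at least 1 CPM on average, those nearest to CXCL8 were PDK1 at 0.219, TOX2 at 0.224 and KLF11 at 0.238. Those nearest to CXCL1 were TFAP2C at 0.229, CHEK1 at 0.233 and CIT at 0.257. Nearest to CXCL3 were NDRG1 at 0.249, LIF at 0.296 and HES7 at 0.313, and nearest to CXCL2 were PPP1R1B at 0.333, JAM2 at 0.343 and SLC30A3 at 0.389. PPP1R1B, JAM2 and SLC30A3 averaged below 1 CPM in both treated groups, and HES7 averaged 0.378 CPM in vemurafenib cells. Their likeness to CXCL2 or CXCL3 rests in part on very low counts.

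Along the chromosome the decrease did not run evenly beyond the chemokine genes. AREG, which encodes the EGF-receptor ligand amphiregulin and lies 704.6 kb from the CXCL8 start, averaged 2.39 CPM in vemurafenib, 204 CPM in cisplatin and 34.4 CPM in control cells. Its log2 change against control was -3.83 with vemurafenib (SE 0.33, edgeR adjusted p = 3.71e-06) and 2.57 with cisplatin (SE 0.27, edgeR adjusted p = 1.78e-05). PARM1 likewise changed by -2.39 with vemurafenib and by 2.29 with cisplatin (edgeR adjusted p = 3.35e-05 and 8.86e-06), the first of which was -1.38 with limma on log2(TPM + 1). MTHFD2L, a mitochondrial folate enzyme whose gene is the next one after CXCL2, changed by -0.89 with vemurafenib (edgeR adjusted p = 0.000521) and had -0.15 with cisplatin (0.419, not called).

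BTC, another EGF-receptor ligand, had -0.46 with vemurafenib (edgeR adjusted p = 0.114, not called) and 0.60 with cisplatin (0.0366). That call was lost without the first or the second cisplatin replicate and without each control replicate (0.44 to 0.65, edgeR adjusted p = 0.0671 to 0.156). On the other side, COX18 and ANKRD17 were not called in either comparison. Of the 12 flanking genes looked up 6 were tested, 0 higher and 3 lower with vemurafenib and 3 higher and 0 lower with cisplatin, with medians of -0.68 and 0.40. The count of higher genes with vemurafenib was 1 with the replicate block, with total counts only, with the length trend removed and without the first vemurafenib replicate. Over all genes tested, 22.0% were called higher and 22.9% lower with vemurafenib, and 22.7% higher and 23.5% lower with cisplatin. ALB, AFP, AFM, RASSF6, EPGN and EREG were below the filter, and the platelet chemokines PF4, PF4V1 and PPBP, which lie within the cluster, were not analysed here.

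**Figure D4:**
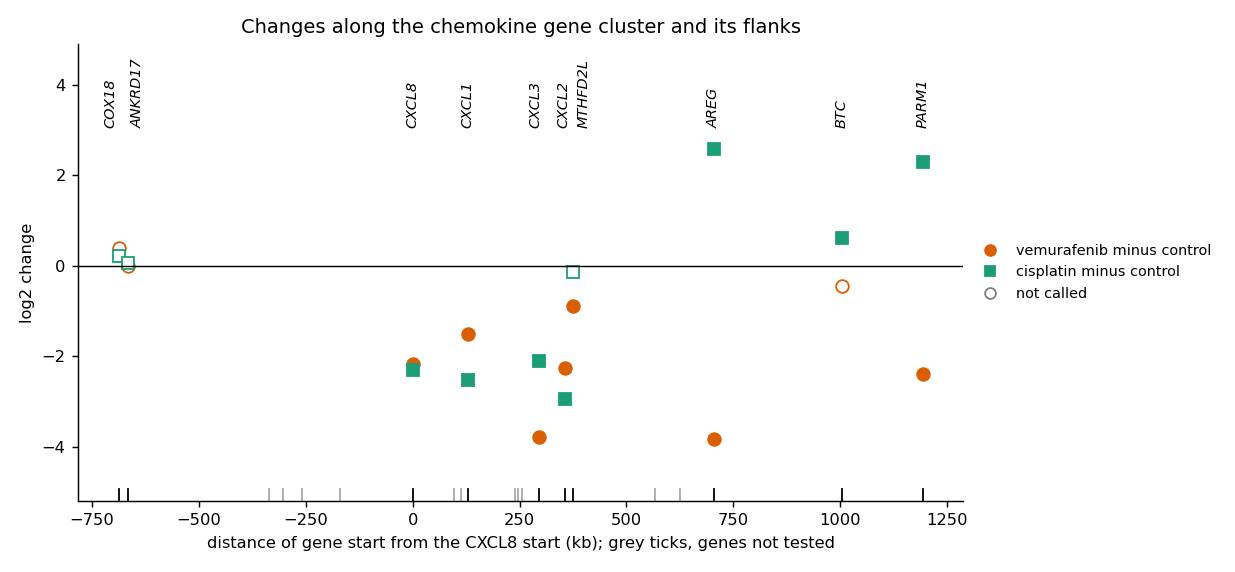
Log2 change against control (y axis) of each tested gene by the distance of its start from the CXCL8 start (x axis, kb), with circles for vemurafenib and squares for cisplatin; grey ticks mark genes that were not tested. The 4 chemokines lie between -1.51 and -3.79 for both drugs, whereas AREG is at -3.83 with vemurafenib and 2.57 with cisplatin.

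The receptors of these ligands were barely expressed. CXCR2 averaged 0.17 CPM in vemurafenib, 1.13 CPM in cisplatin and 0.195 CPM in control cells, from 8, 50 and 9 summed counts. Its log2 change was 2.48 with cisplatin (SE 0.54, edgeR adjusted p = 0.00284) and -0.21 with vemurafenib (edgeR adjusted p = 0.839). CXCR2 passed the count filter through the cisplatin group, where it was highest, which favoured a higher call there. With a filter of 1 CPM in 3 libraries, and with limma on TPM, it was not tested. CXCR1 had 1 count over the vemurafenib libraries and 0 over the cisplatin and over the control libraries. ACKR1, a decoy receptor that takes up chemokines without signalling, had 10 counts in vemurafenib, 4 in cisplatin and 3 in control libraries, and both were below the filter.

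Other CXC chemokines, which act on other receptors, did not share one direction. CXCL14 averaged 2.78 CPM in vemurafenib, 4.21 CPM in cisplatin and 0.151 CPM in control cells (log2 change 4.12 and 4.72, edgeR adjusted p = 5.29e-05 and 1.43e-05). The control libraries held 7 counts of it in all, so it passed the count filter through the treated groups, and the size of its change was unsure. Over the alternatives it ranged from 1.78 with limma on log2(TPM + 1) to 4.72 without the first control replicate with vemurafenib, and from 2.27 to 5.31 with cisplatin under the same settings. CXCL10, a CXCR3 ligand that attracts T cells, was 2.26 higher on the log2 scale with vemurafenib (SE 0.31, edgeR adjusted p = 0.000133). CXCL11, another CXCR3 ligand, was lower with both drugs (-1.92 and -1.63, edgeR adjusted p = 0.00112 and 0.00268), by -1.03 and -0.93 with limma on log2(TPM + 1). It held 24 counts over the vemurafenib, 27 over the cisplatin and 88 over the control libraries. CXCL11 passed the count filter through the control group, where it was highest, which favoured a lower call. Of 8 looked up 4 were tested: 2 higher and 1 lower with vemurafenib, and 1 higher and 1 lower with cisplatin. The cisplatin count of higher genes was 2 without the second control replicate and without the first vemurafenib replicate. All of these were below 6 CPM on average in every group except CXCL16, which was not called in either comparison. Among all genes tested, 22.0% were called higher and 22.9% lower with vemurafenib, and 22.7% higher and 23.5% lower with cisplatin.

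Cytokines that induce these chemokines were looked up next. Interleukin-1 signals through a receptor, MYD88 and IRAK kinases to NF-kB. IL1A averaged 18.4 ± 4.9 CPM in vemurafenib, 121 ± 17.3 CPM in cisplatin and 224 ± 61.8 CPM in control cells (SD, n = 3 each), and was lower in both (log2 change -3.60 and -0.89, edgeR adjusted p = 6.03e-07 and 0.00543). IL1B was lower by -2.61 and -1.15 and IRAK2, a kinase of this pathway, by -2.22 and -1.47 on the log2 scale with vemurafenib and with cisplatin. IL1RAP, the receptor's accessory chain, was higher with cisplatin (1.05, edgeR adjusted p = 0.00756). Of 10 tested genes 2 were higher and 4 lower with vemurafenib, and 2 were higher and 4 lower with cisplatin. The vemurafenib count of higher genes was 1 without the second cisplatin, the third vemurafenib or any of the 3 control replicates. The medians of -0.11 and -0.15 were near those of all genes. The shares called over all genes were 22.0% higher and 22.9% lower with vemurafenib, and 22.7% higher and 23.5% lower with cisplatin. TNF itself had 2 counts over the vemurafenib libraries, 0 over the cisplatin libraries and 25 over the control libraries.

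Of 15 genes for NF-kB subunits, their kinases and inhibitors, 8 were called lower and 1 higher with vemurafenib, and 6 lower and 0 higher with cisplatin. With vemurafenib 22.0% of all genes tested were called higher and 22.9% lower, and with cisplatin 22.7% higher and 23.5% lower. TNFAIP3, an inhibitor that NF-kB itself induces, averaged 27.0 CPM in vemurafenib, 41.9 CPM in cisplatin and 104 CPM in control cells (log2 change -1.94 and -1.31, edgeR adjusted p = 6.74e-07 and 1.03e-05). NFKB2, a subunit gene, changed by -1.77 with vemurafenib and -1.10 with cisplatin, and NFKBIZ, a nuclear cofactor, by -1.15 and -1.04. RELA, a subunit of the classical dimer named outside the naming rule, was not called with either drug (-0.09 and -0.19). Of the other subunit genes, RELB was called lower with vemurafenib (-0.99) and with cisplatin (-0.63). NFKB1 was called lower with vemurafenib (-0.65) and was not called with cisplatin (0.19). REL was not called with either drug (-0.32 and -0.39). The medians of the 15 genes were -0.56 and -0.39. The higher count with vemurafenib was 3 without the first vemurafenib replicate and 0 without any 1 control replicate. That with cisplatin was 3 without the first vemurafenib replicate.

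AP-1 and C/EBP factors bind the CXCL8 promoter beside NF-kB. Of 11 tested, 2 were higher and 6 lower with vemurafenib, with 0 higher and 3 lower with cisplatin (medians -0.69 and -0.34). FOSB changed by -2.07, JUNB by -1.51 and JUN by 1.61 with vemurafenib (edgeR adjusted p = 0.00191, 8.21e-05 and 0.00338). With cisplatin FOSL1 changed by -1.33 and CEBPB by -0.71 (edgeR adjusted p = 3.58e-05 and 0.000905). FOSL2 had -0.71 (0.0482), a call that was lost without the third vemurafenib replicate, without any 1 cisplatin replicate and without the second or the third control replicate (-0.33 to -0.79). It was also lost with RLE size factors, total counts only and limma on log2(TPM + 1) or log2(TPM + 0.1) (-0.70, -0.66, -0.54 and -0.57). The cisplatin count of higher genes was 1 without the first cisplatin replicate. All genes tested had shares of 22.0% higher and 22.9% lower with vemurafenib, and 22.7% higher and 23.5% lower with cisplatin.

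Genes that report ERK activity, the pathway BRAF drives, separated the drugs. Of 10 tested, 9 were lower and 0 higher with vemurafenib, and 3 lower and 0 higher with cisplatin, with medians of -1.48 and -0.10. The shares over all genes tested were 22.9% lower and 22.0% higher with vemurafenib, and 23.5% lower and 22.7% higher with cisplatin. EGR1 changed by -3.04, ETV4 by -2.60 and SPRY4 by -2.54 with vemurafenib (edgeR adjusted p = 0.000329, 3.92e-07 and 2.72e-06). With cisplatin ETV4 changed by -1.44 and PHLDA1 by -0.54, while ETV5 had -0.30 (edgeR adjusted p = 0.036), a call lost without any 1 cisplatin or control replicate (-0.28 to -0.33), with total counts only (-0.25) and with both limma fits on TPM (-0.22). Between vemurafenib and cisplatin cells 9 of the 10 were called lower in vemurafenib, where 20.8% of all genes tested were, with EGR1 at -3.02 and SPRY4 at -2.41. Without the first vemurafenib replicate 1 gene of this list was called higher in each of these comparisons.

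The chemokine messages carry ATTTA, the core of the AU-rich element, more densely than most. Their GENCODE v29 3′ untranslated regions held 13.9 copies per kb in CXCL2, 10.4 in CXCL3, 7.19 in CXCL8, 7.08 in CXCL1, 5.51 in CXCL5 and 5.36 in CXCL6, against a median of 1.43 over 18826 genes. Of these genes 0.701% were at or above CXCL2 and 8.36% at or above CXCL6. Among 8 factors that control the stability of such messages, 5 were lower and 0 higher with vemurafenib, and 6 lower and 2 higher with cisplatin (medians -0.63 and -0.90). The cisplatin count of higher genes was 1 without the first or second cisplatin replicate or the third control replicate. Among all genes tested, 22.9% were called lower and 22.0% higher with vemurafenib, and 23.5% lower and 22.7% higher with cisplatin.

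ZFP36L2, a decay factor that binds AU-rich elements, changed by -1.96 with vemurafenib and -1.33 with cisplatin (edgeR adjusted p = 7.37e-07 and 1.08e-05). ZC3H12A, a nuclease that degrades cytokine messages, changed by -1.44 and -1.66, ZFP36L1 by -0.77 with vemurafenib, and HNRNPD by -1.18 with cisplatin. ZFP36, the decay factor tristetraprolin, was lower with vemurafenib (-0.59, edgeR adjusted p = 0.0131) and higher with cisplatin (0.71, edgeR adjusted p = 0.00389). It was named for its role, after its values were seen.

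Proteases that cut chemokines after secretion moved in both directions. MMP9, a gelatinase that trims CXCL8, averaged 1.76 CPM in vemurafenib, 1.07 CPM in cisplatin and 47.2 CPM in control cells (log2 change -4.74 and -5.46, edgeR adjusted p = 1.03e-07 and 2.49e-08). MMP8, which cleaves CXCL5 and CXCL8, averaged 76.4 CPM in vemurafenib, 10.5 CPM in cisplatin and 6.04 CPM in control cells, and was 3.66 higher on the log2 scale with vemurafenib (edgeR adjusted p = 1.41e-06). ANPEP, an aminopeptidase, changed by -1.88 with vemurafenib, and MMP12 by 3.88 and MMP1 by -1.50 with cisplatin. MMP12 passed the count filter through the cisplatin group, where it was highest, which favoured a higher call there. It had 10 counts over the control libraries, and its change was 1.95 with limma on log2(TPM + 1) and 4.57 without the third control replicate. The MMP9 changes were -3.97 with vemurafenib and -4.38 with cisplatin by that limma fit. Of 8 tested genes, 2 were higher and 3 lower with vemurafenib, and 2 higher and 4 lower with cisplatin, with medians of -0.41 and -0.64. The cisplatin count of higher genes was 1 without the third cisplatin or the first or second control replicate. Over all genes tested, 22.0% were called higher and 22.9% lower with vemurafenib, and 22.7% higher and 23.5% lower with cisplatin.

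Where edgeR called 0 genes of a list in 1 direction against control, at most 1 of them passed an unadjusted p of 0.05. These were COX18 and SPRED1, higher with vemurafenib, and CHUK, higher with cisplatin. DESeq2 called 0 in each such case, and limma on log2(TPM + 1) called 0 except for 1 NF-kB gene higher with cisplatin.

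**Figure D5:**
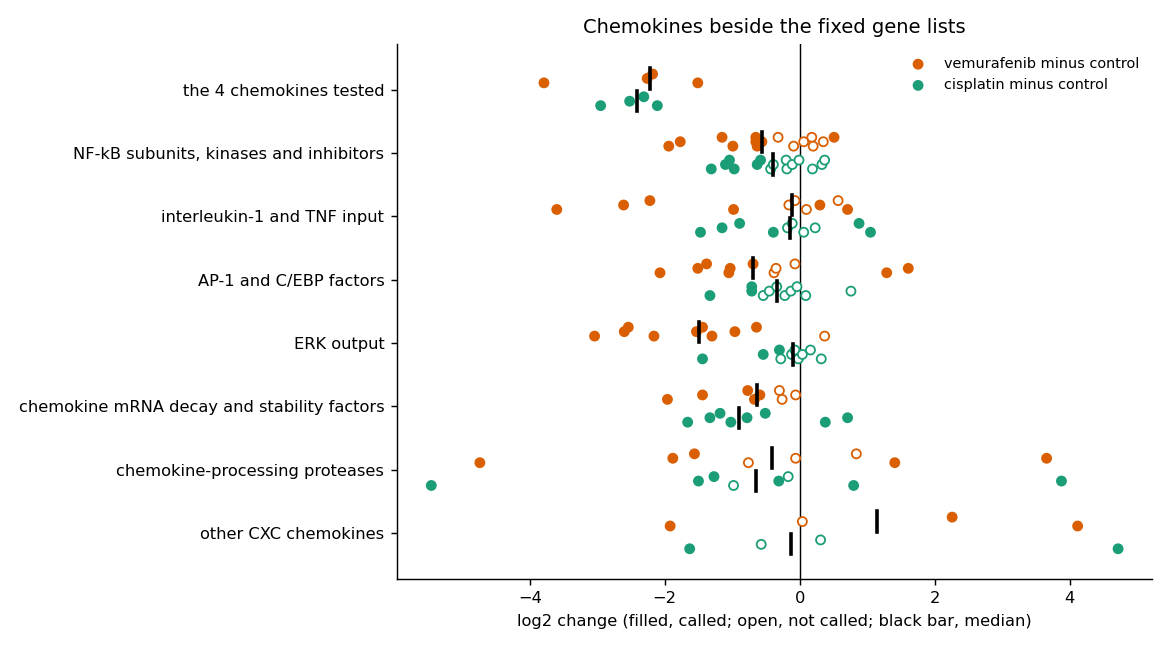
Log2 change against control (x axis) of the 4 tested chemokines and of each tested gene of 7 lists (y axis), vemurafenib above cisplatin; filled points are called, open points are not, and black bars are medians. The chemokine medians are -2.22 and -2.41, and those of the ERK output list are -1.48 with vemurafenib and -0.10 with cisplatin.

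With only the chemokines described here left out, 147 gene identifiers had the NF-kB word in their promoter window, and 64 of them were tested. With vemurafenib 20 were lower (31.2%) and 18 higher (28.1%), with a median log2 change of -0.10. With cisplatin 18 were lower (28.1%) and 12 higher (18.8%), with a median of -0.13. Over all genes tested the shares were 22.9% lower and 22.0% higher with vemurafenib, and 23.5% lower and 22.7% higher with cisplatin. The part of the word in the chemokine changes was not tested.

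Markers of leukocytes, the cells these chemokines attract, were low. Of the 9 looked up 7 had a row, and their summed level was 4.36 to 9.06 CPM in vemurafenib, 33.2 to 53.1 CPM in cisplatin and 7.96 to 10.8 CPM in control libraries. LYZ made up most of it, at 5.75 CPM in vemurafenib, 40.6 CPM in cisplatin and 7.89 CPM in control cells. PTPRC, which marks all leukocytes, averaged 0.25 CPM in vemurafenib and 0.316 CPM in cisplatin cells and was at 0 in control cells; MPO was at 0 in vemurafenib and control cells. ITGAM, a myeloid integrin chain, ran the other way, at 0.0208 CPM in vemurafenib, 0.634 CPM in cisplatin and 1.07 CPM in control cells. Summed fibroblast markers were 31.0 to 42.0 CPM in vemurafenib, 17.4 to 31.6 CPM in cisplatin and 22.1 to 24.0 CPM in control libraries. Keratinocyte and epithelial markers summed to 0.436 to 0.857 CPM in vemurafenib, 0.623 to 1.02 CPM in cisplatin and 3.52 to 5.78 CPM in control libraries. KRT14, at 4.41 CPM on average, made up most of the control sum. Endothelial markers summed to 0.49 to 0.715 CPM in vemurafenib, 2.33 to 3.88 CPM in cisplatin and 2.93 to 4.91 CPM in control libraries. Of these, PECAM1 averaged most in control cells (2.93 CPM) and VWF most in cisplatin cells (1.54 CPM). The part of these markers in the chemokine changes was not tested.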

How the data were processed

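Per the labels' protocols, total RNA of A375 cells was primed with random hexamers and sequenced as circularised libraries; no label states that strand was marked. The submitters' processing notes name HISAT2 2.0.4 and hg38. What tool and annotation produced the counts is not stated in the labels or headers. The authors deposited estimated counts, TPM and FPKM per gene. Between 13.6% and 14.1% of the deposited estimated counts of a library were not whole (tolerance 1e-06) and were rounded. The deposited FPKM values served for effective lengths, and the deposited TPM values for levels between genes. Of 18430 identifiers 18153 matched RefSeq (GRCh38.p14), and 26 symbols stored as dates were replaced through their identifiers.

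Groups follow the sample titles. Genes were filtered with filterByExpr, leaving 13989, scaled by TMM and tested in 1 fit of group means over all 9 libraries (edgeR 4.0.16 in R 4.3.3, quasi-likelihood F test, two-sided, Benjamini-Hochberg adjustment over all genes tested, called at 0.05). Each SE was taken as the size of the log2 change over the root of F. The fit recovered known changes on simulated data, which held no outlying replicate and no length trend. By a chi-square test of counts no pair of libraries in a group was a duplicate. Alternatives were DESeq2 1.42.0, limma 3.58.1 on log2(TPM + 1) and log2(TPM + 0.1), other scalings, filters and sample sets, removal of the length trend, a replicate block and each library left out.

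Deviations of same-numbered libraries from their group means correlated at 0.18, 0.14 and 0.18 between vemurafenib and control. Between cisplatin and control they correlated at 0.21, 0.08 and 0.13, and between the drugs at 0.17, 0.01 and 0.10. Libraries with different numbers gave -0.17 to -0.02, -0.18 to 0.05 and -0.17 to 0.14 in the same order. No label states a pairing, so the reported fit had no block, and the block was an alternative only. It changed no chemokine call against control, and between the drugs it added CXCL2.

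From each list up to 3 called genes with the largest change were named per comparison. Some genes, among them RELA, RELB, NFKB1, REL and ZFP36, were also given against control outside this rule. The members and lists were chosen with earlier results of these data known.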

Additional observations from a re-analysis of the deposited data

How the results depend on the processing

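Over 19 alternatives to the reported fit, the 4 tested chemokines were called lower against control in every one. Their log2 changes with vemurafenib ranged from -1.61 to -1.35 in CXCL1, -2.46 to -1.95 in CXCL2, -3.95 to -3.60 in CXCL3 and -2.38 to -1.99 in CXCL8. With cisplatin they ranged from -2.62 to -2.36 in CXCL1, -3.22 to -2.63 in CXCL2, -2.34 to -1.87 in CXCL3 and -2.41 to -2.17 in CXCL8. Of 228 chemokine values 226 kept their direction and side of the threshold. The others concern vemurafenib against cisplatin. CXCL2 was 0.74 with the replicate block (edgeR adjusted p = 0.0371), where the same-numbered libraries correlated at 0.17, 0.01 and 0.10. No label says whether they are pairs. CXCL8 lay between -0.08 and 0.32, reversing without the third vemurafenib replicate. The cause was not tested. CXCR2 against control with vemurafenib lay between -1.02 and 0.16 with each library left out, reversing to 0.04 without the first control replicate and to 0.16 without the second vemurafenib replicate. Genes called ranged from 5063 to 7672 for vemurafenib (6282 reported), 5237 to 8642 for cisplatin (6471) and 4767 to 7157 between the drugs (6119). With total counts only, the median vemurafenib change of all genes moved to 0.11, and 60.0% of calls were higher, against 49.1% as reported; with limma on TPM 59.5% were. CXCL5 and CXCL6 are limited by depth. Alternatives for the lists were added after the data were seen.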
